A study of Mus musculus with 2 samples.

Results

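The unfolded protein response and the integrated stress response were read through 34 mouse genes in lung epithelial cells sorted from tumour-bearing and from normal mice. The genes were taken by symbol from 2 deposited tables of RPKM, a read number scaled to gene length and library total. They are 34 of 15113 genes listed in either table. The normal table listed 33 of them and the tumour-bearing table all 34, and Chac1, missing from the normal table, was taken as 0 there. Of the 34, 32 reached 1 RPKM in at least 1 library and are called tested below. Derl3 and Chac1 did not.

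With 1 library in each group, differences below have no replicates behind them, and p-values are not given. The normal group were wild-type C57BL/6 mice aged 6 to 8 weeks that carried no tumour. The other group, of the same strain and age, had received 1000000 luciferase-labelled cells of LLC, a line of mouse Lewis lung carcinoma, under the skin of the back, a model of spontaneous spread to the lung. In both groups, cells without CD45, the leukocyte surface protein, and with Sftpc, the surfactant protein of alveolar type 2 (AT2) cells, were sorted from digested lung. How many mice stand behind a library, whether they were pooled, and how Sftpc was detected cannot be told from the labels.

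The endoplasmic reticulum (ER) folds secreted and membrane proteins, and in AT2 cells it carries the load of surfactant protein production. When unfolded protein builds up there, the sensors encoded by Ern1 (IRE1), Atf6 and Eif2ak3 (PERK) raise transcription of chaperones, folding enzymes and the machinery that exports misfolded protein for destruction, known as ER-associated degradation. PERK also phosphorylates the initiation factor eIF2alpha, which lowers protein synthesis in general while the mRNA of Atf4 is translated more. That branch, the integrated stress response, is shared with kinases that sense amino acid shortage, haem and double-stranded RNA. Gene totals such as these do not separate spliced from unspliced Xbp1 mRNA, and they do not show translation of Atf4 or Ddit3 or cleavage of Atf6.

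The deposited values corresponded to a total of 5335352 reads for the normal library and 5387114 for the tumour-bearing one. The 95% interval in brackets after a ratio was computed from reads by an exact method and covers counting error only. The gate genes stood on the side the sort implies, with Sftpc at 94903 and 54968 RPKM and Ptprc (CD45) at 0.404 and 0.0667 RPKM, normal first. Ptprc is 1 of 6 pan-leukocyte markers, which summed to 85.5 and 52.0 RPKM. Most of that sum was Lcp1, at 82.7 and 50.3 RPKM, so not every leukocyte marker was near 0. Markers of other lung cells were not equal. Summed RPKM, normal first, was 25.4 and 430.5 for 8 fibroblast markers, 25.6 and 115 for 8 endothelial markers and 1761 and 2882 for 9 markers of the flat AT1 cell. It was 15 and 50.5 for 8 macrophage and monocyte markers, of which Adgre1 and Marco were listed in neither table. For 10 AT2 markers the sum was 123852 and 87015, and the fall in this sum lay in Sftpc. The other 9 summed to 28949 and 32047, with 4 higher and 5 lower. Sftpd was among the higher, at 3633 and 7410 RPKM. Lamp3, at 1116 and 570 RPKM, and Etv5, at 341 and 162 RPKM, were among the lower. The median log2 ratio of the 10 was -0.19, against 0.06 for all genes tested. The 5 club cell markers summed to 32176 and 36492, most of it Scgb1a1 at 30142 and 35116 RPKM. Of these 5, 3 were higher and 2 lower, Cyp2f2 at 1203 and 491 RPKM and Scgb3a2 at 579 and 341 RPKM. Of the 8 endothelial markers, 6 were higher and 2, Kdr and Tek, were lower. Plasma cells are rich in ER chaperones. Of 10 plasma and B cell markers, 7 were listed in neither library, Mzb1, Igkc and Ighm among them, Jchain had 10 normal and 63 tumour-bearing reads, Cd79a 0 and 5, and Cd79b 145 and 115. The part of these cells in the values below was not tested, and fewer cells of a type cannot be told apart from less RNA per cell.

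Expression of the 34 genes together was a little lower in the tumour-bearing library, and the direction differed between genes, also within several roles. Among the 34, genes for the abundant chaperones and the 3 disulphide isomerases were lower, as were Atf4, Ddit3 and Ppp1r15a. Higher were Herpud1, Os9 and Derl2 of ER-associated degradation and the ATF4 target Asns. On the log2(RPKM + 1) scale, 1 of the 32 tested genes was lower by 2-fold or more, against 6.53% of 12288 genes tested. By that rule 0 were higher, against 9.38%. The log2 ratio, tumour-bearing over normal, was below 0 for 19 and above 0 for 13, against 46.2% and 53.8% of all genes tested. The median was -0.16 for the 32 genes and 0.06 for all genes tested. The interval of the read ratio lay wholly below 1 for 15 genes and wholly above 1 for 10, and for 7 it included 1. Of the 12283 tested genes with recovered reads, 26.5% lay below 1 and 33.1% above. With the libraries scaled in 4 other ways, 15 stayed below 1 and 7 or 8 lay above, since Atf5, Nupr1 and in 2 of the scalings Manf then included 1.

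These intervals narrow with depth, and the 34 genes are well expressed, with a median of 34.2 RPKM in the normal library against 6.47 RPKM for all listed genes. Read within levels, the tilt toward lower values stood among the most abundant members. Of the 9 with a mean of 100 RPKM or more over both libraries, 7 had an interval below 1 and 2, Herpud1 and Nupr1, above 1. Over all 559 genes at that level the shares were 33.3% below and 49.7% above. Between 10 and 100 RPKM, 7 of 20 members lay below and 7 above, against 25.5% and 38.6%. Under 10 RPKM, 1 of 3 lay on each side, against 26.6% and 27.6%. The summed RPKM of the 34 genes was 3113 in the normal and 2589 in the tumour-bearing library.

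**Figure D1:**
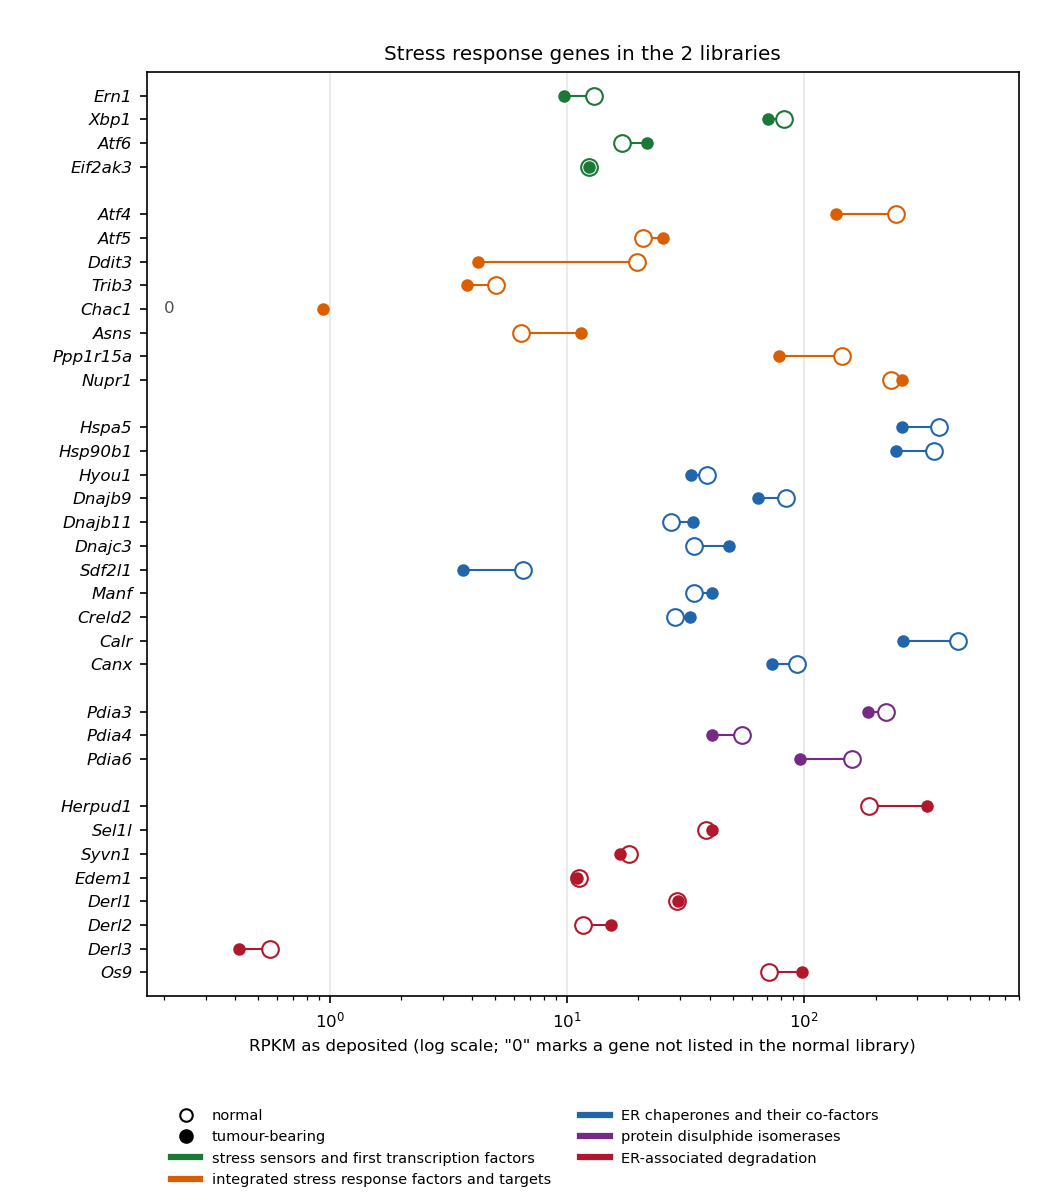
RPKM as deposited (log axis) of the 34 genes in the normal (open points) and the tumour-bearing library (filled points), coloured by role. Filled points lie left of the open points for Atf4, Ddit3, Ppp1r15a, Calr, Hspa5, Hsp90b1 and the 3 Pdia genes and right of them for Herpud1, Os9 and Asns, and "0" marks Chac1, not listed in the normal library.

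Promoter sequence was searched for elements through which ATF6 and ATF4 are known to act. The 34 genes were picked as genes of the stress responses these factors belong to, so the shares below are not independent of that choice. Windows from 250 bases before to 50 bases after the start were taken from RefSeq (GRCm38.p6) for 30 of the 34 genes, and Atf6, Derl1, Hyou1 and Manf had no entry. Searched on both strands were the ER stress response element, CCAAT and CCACG with 9 bases between them, bound by NF-Y with ATF6, and its second form, ATTGG and CCACG with 1 base between them. An XBP1 type element, TGACGTGG, and the C/EBP-ATF response element, TGATGNAA, at which ATF4 pairs with a C/EBP factor, were searched as well. The first element was found in 9 of 30 genes, against 0.137% of all 27025 genes with a window, and the second form in 2 of 30, against 0.0444%. The C/EBP-ATF element was found in 5 of 30, against 4.51%. The XBP1 type letters were in 0 of 30 windows, against 0.714%. A match is a description of letters and does not show that a factor was bound.

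The ER stress response elements are given 5′ to 3′ in the direction of the motif, with the matched letters in capitals, positions on GRCm38.p6, and 5 flanking bases on each side. The spacer between the CCAAT and CCACG ends differs from gene to gene, and Hsp90b1 holds 2 copies.
Calr, chr8:84847075-84847093: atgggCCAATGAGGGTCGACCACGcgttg
Canx, chr11:50325800-50325818: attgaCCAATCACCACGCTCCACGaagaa
Creld2, chr15:88819520-88819538: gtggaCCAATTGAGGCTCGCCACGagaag
Derl3, chr10:75893242-75893260: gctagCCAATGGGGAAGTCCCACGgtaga
Dnajc3, chr14:118937827-118937845: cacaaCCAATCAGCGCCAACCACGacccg
Hsp90b1, chr10:86705533-86705551: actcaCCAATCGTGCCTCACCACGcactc
Hsp90b1, chr10:86705638-86705656: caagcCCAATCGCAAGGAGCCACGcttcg
Hspa5, chr2:34772025-34772043: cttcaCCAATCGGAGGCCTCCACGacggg
Pdia6, chr12:17266491-17266509: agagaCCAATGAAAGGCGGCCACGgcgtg
Syvn1, chr19:6046532-6046550: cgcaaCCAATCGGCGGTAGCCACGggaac

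Of the 8 tested genes with this element, Calr, Canx, Hsp90b1, Hspa5 and Pdia6 had an interval below 1, Dnajc3 had one above 1, and those of Creld2 and Syvn1 included 1. Over all genes 26.5% lay below 1 and 33.1% above. The median log2 ratio of the 8 was -0.43, against 0.06 for all genes tested. Calr, Hsp90b1, Hspa5 and Pdia6 are also among the 9 most abundant members, so element and abundance cannot be told apart. Derl3, the ninth, was not tested.

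The second form was found in the following genes, in capitals.
Dnajb11, chr16:22857852-22857862: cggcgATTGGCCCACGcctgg
Herpud1, chr8:94386377-94386387: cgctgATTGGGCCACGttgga
Herpud1 and Dnajb11 both had an interval above 1, against 33.1% of all genes. Their median log2 ratio was 0.56, against 0.06 for all genes tested. With 2 genes, no direction can be tied to this element.

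The C/EBP-ATF elements were these, again in the direction of the motif. The sixth base of the motif is free and differs between genes.
Asns, chr6:7693225-7693232: ccacaTGATGAAActtcc
Chac1, chr2:119351049-119351056: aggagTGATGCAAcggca
Herpud1, chr8:94386317-94386324: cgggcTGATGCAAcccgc
Nupr1, chr7:126625573-126625580: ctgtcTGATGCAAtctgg
Trib3, chr2:152344039-152344046: ccggcTGATGTAAacctg
Of the 4 tested genes with it, Asns, Herpud1 and Nupr1 had an interval above 1 (that of Nupr1 not under other scalings), that of Trib3 included 1, and 0 had one below 1. Over all genes 33.1% lay above 1, and 49.7% of those at 100 RPKM or more, the level of Herpud1 and Nupr1. The median log2 ratio of the 4 was 0.45, against 0.06 for all genes tested, and Chac1, the fifth, had reads only in the tumour-bearing library. Herpud1 is in this set and in the one before.

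The upstream 250 bases of Hspa5 and Herpud1, the main ER chaperone gene and the most abundant degradation gene, show the elements in place, with every match in capitals.
Hspa5, chr2:34771840-34772089, plus strand: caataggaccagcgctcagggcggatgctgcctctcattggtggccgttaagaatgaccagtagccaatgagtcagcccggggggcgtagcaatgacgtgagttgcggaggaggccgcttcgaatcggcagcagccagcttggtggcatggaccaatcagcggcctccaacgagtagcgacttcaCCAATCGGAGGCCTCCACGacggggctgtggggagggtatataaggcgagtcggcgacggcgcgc
Herpud1, chr8:94386179-94386428, plus strand: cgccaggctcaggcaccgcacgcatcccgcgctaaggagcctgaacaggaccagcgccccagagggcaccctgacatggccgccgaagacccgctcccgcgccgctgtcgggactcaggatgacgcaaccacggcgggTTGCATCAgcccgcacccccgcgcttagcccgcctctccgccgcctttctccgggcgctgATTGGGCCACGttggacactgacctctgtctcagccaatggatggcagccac
Hspa5 has 1 exact match to the ER stress response element, at -65 to -47 from its start. Stretches that differ from the searched letters were not counted, so it may hold further elements of this kind. Herpud1 has the second form at -52 to -42 and a C/EBP-ATF element at -112 to -105, which lies on the opposite strand and so reads in reverse complement here.

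Among the sensors, differences were small and in both directions. Ern1 (GeneID 78943, chromosome 11), the kinase and nuclease that splices Xbp1 mRNA, was at 13.1 RPKM (normal) and 9.71 RPKM (tumour-bearing), 1.34-fold lower (1.12 to 1.62). Xbp1, the transcription factor made from the spliced mRNA, was at 82.1 and 70.6 RPKM, 1.16-fold lower (1.06 to 1.28). Both members of this branch were thus slightly lower. Atf6 (chromosome 1), a membrane-bound factor freed by cleavage, was at 17.1 and 21.8 RPKM, 1.27-fold higher (1.15 to 1.41). Eif2ak3, encoding PERK, was at 12.4 and 12.3 RPKM, with a ratio of 0.997 (0.847 to 1.17). The group's median log2 ratio was -0.11 over 4 genes, all within 2-fold.

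The integrated stress response genes were split in direction, with Atf4, Ddit3 and Ppp1r15a lower and Asns higher beyond counting error. Atf4 (GeneID 11911, chromosome 15, 80255184 to 80257545 on GRCm38.p6), its central transcription factor, was at 243 RPKM (normal) and 136 RPKM (tumour-bearing), 1.79-fold lower (1.67 to 1.92). Ddit3 (chromosome 10, 127290793 to 127296291), encoding CHOP, a factor of prolonged stress and cell death, was at 19.8 and 4.22 RPKM from 93 and 20 reads. This ratio of 4.7-fold lower (2.87 to 8.04) was the one past 2-fold among the tested genes, and 0.635% of all genes tested had a lower log2 ratio. Ppp1r15a (GADD34), the subunit that directs dephosphorylation of eIF2alpha and ends the response, was at 144 and 78.2 RPKM, 1.85-fold lower (1.71 to 2). Trib3, a pseudokinase that restrains ATF4, was at 5.03 and 3.80 RPKM, with an interval of the ratio that included 1 (0.494 to 1.15).

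On the other side, Asns, asparagine synthetase, was at 6.42 RPKM (normal) and 11.5 RPKM (tumour-bearing), 1.79-fold higher (1.31 to 2.45) from 66 and 119 reads. Atf5, a factor related to ATF4, was at 20.9 and 25.5 RPKM, 1.22-fold higher (1.01 to 1.48). Nupr1, a small stress-induced nuclear protein, was the most abundant target, at 231 and 258 RPKM, 1.12-fold higher (1.01 to 1.23). The lower bounds for Atf5 and Nupr1 lie just above 1, and with each of the 4 other scalings of the libraries tried both intervals included 1. Chac1, which breaks down glutathione, had 0 normal and 8 tumour-bearing reads. The lower limit of its interval was 1.69. With 3 reads set in place of 0 for the normal library, the ratio would be 2.64, which is not a limit. The 7 tested genes of the group had a median log2 ratio of -0.33, with 3 above 0 and 4 below.

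Immediate early genes, which tissue digestion and other acute stimuli are known to raise, moved with the lower members of this group. All 17 of them were below 0, 10 by 2-fold or more, against 46.2% and 6.53% of all genes tested, with a median log2 ratio of -1.31. Their summed RPKM was 6298 (normal) and 2593 (tumour-bearing). Egr2, Fosb, Egr1 and Nr4a1 were 9.48-fold, 3.97-fold, 3.52-fold and 3.09-fold lower. Ppp1r15a and Atf3 also respond to such stimuli. The part of handling in the values of Atf4, Ddit3 and Ppp1r15a was not tested.

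ER chaperones were the role group with the highest summed RPKM in both libraries, and the abundant ones were lower in the tumour-bearing mice's cells. The group's 11 genes summed to 1516 RPKM (normal) and 1093 RPKM (tumour-bearing), a 1.39-fold lower sum, and 7 intervals lay below 1, 3 above and 1 across it, against 26.5% below and 33.1% above over all genes. Calr (GeneID 12317, chromosome 8), calreticulin, a calcium-binding chaperone of glycoproteins, was the most abundant of the 34 in the normal library, at 446 RPKM, and stood at 261 RPKM in the other, 1.71-fold lower (1.63 to 1.8). Its membrane-bound partner Canx, calnexin, was at 93.1 and 73.1 RPKM, 1.27-fold lower (1.19 to 1.36). The 2 lectin chaperones therefore shared a direction but not a size, with intervals that did not meet.

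Hspa5 (GeneID 14828, chromosome 2, 34772090 to 34776529), encoding BiP, the main ER chaperone and a brake on all 3 sensors, was at 371 and 257 RPKM, 1.44-fold lower (1.38 to 1.5). Hsp90b1 (GRP94), the ER member of the HSP90 family, was at 352 and 245 RPKM, 1.44-fold lower (1.38 to 1.5). The 2 genes were alike in both libraries, with Hspa5 at 1.05 times Hsp90b1 in each. Dnajb9, a BiP co-factor, was at 84.0 and 63.8 RPKM, 1.32-fold lower (1.19 to 1.46), and Hyou1, a large exchange factor for BiP, at 39.0 and 33.4 RPKM, 1.17-fold lower (1.06 to 1.28). Sdf2l1, part of BiP complexes, was low, at 6.54 and 3.65 RPKM from 39 and 22 reads, with a wide interval of 1.04 to 3.17 around 1.79-fold lower.

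The remaining chaperone genes were higher or within counting error. Dnajc3 (P58IPK), a BiP co-factor that also inhibits eIF2alpha kinases, was at 34.2 RPKM (normal) and 48.4 RPKM (tumour-bearing), 1.42-fold higher (1.30 to 1.54). Dnajb11, another BiP co-factor, was at 27.4 and 34 RPKM, 1.24-fold higher (1.08 to 1.42), and Manf, a secreted BiP-binding protein, at 34.2 and 40.8 RPKM, 1.19-fold higher (1.04 to 1.36). Under upper-quartile scaling and the sum without Sftpc the interval of Manf included 1. Creld2, secreted under ER stress, was at 28.6 and 33.1 RPKM, with an interval of 0.958 to 1.40. DnaJ co-factors of BiP thus lay on both sides of 1.

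The 3 protein disulphide isomerases among the 34 genes form and shuffle disulphide bonds. All 3 had an interval below 1, against 26.5% of all genes, and their median log2 ratio was -0.40. Pdia6 (chromosome 12), which also acts on IRE1 and PERK, was at 159 and 96.1 RPKM, 1.65-fold lower (1.53 to 1.78). Pdia4 was at 54.4 and 41.0 RPKM, 1.33-fold lower (1.19 to 1.48), and Pdia3, the partner of calreticulin and calnexin, at 221 and 186 RPKM, 1.19-fold lower (1.13 to 1.26). Pdia6 and Pdia3 had intervals that did not meet, so the reduction was not of 1 size across these 3. P4hb, an isomerase outside the 34 and named after its values were seen, was at 454 and 476 RPKM. Pdia5, also outside them, was at 6.99 and 3.26 RPKM.

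**Figure D2:**
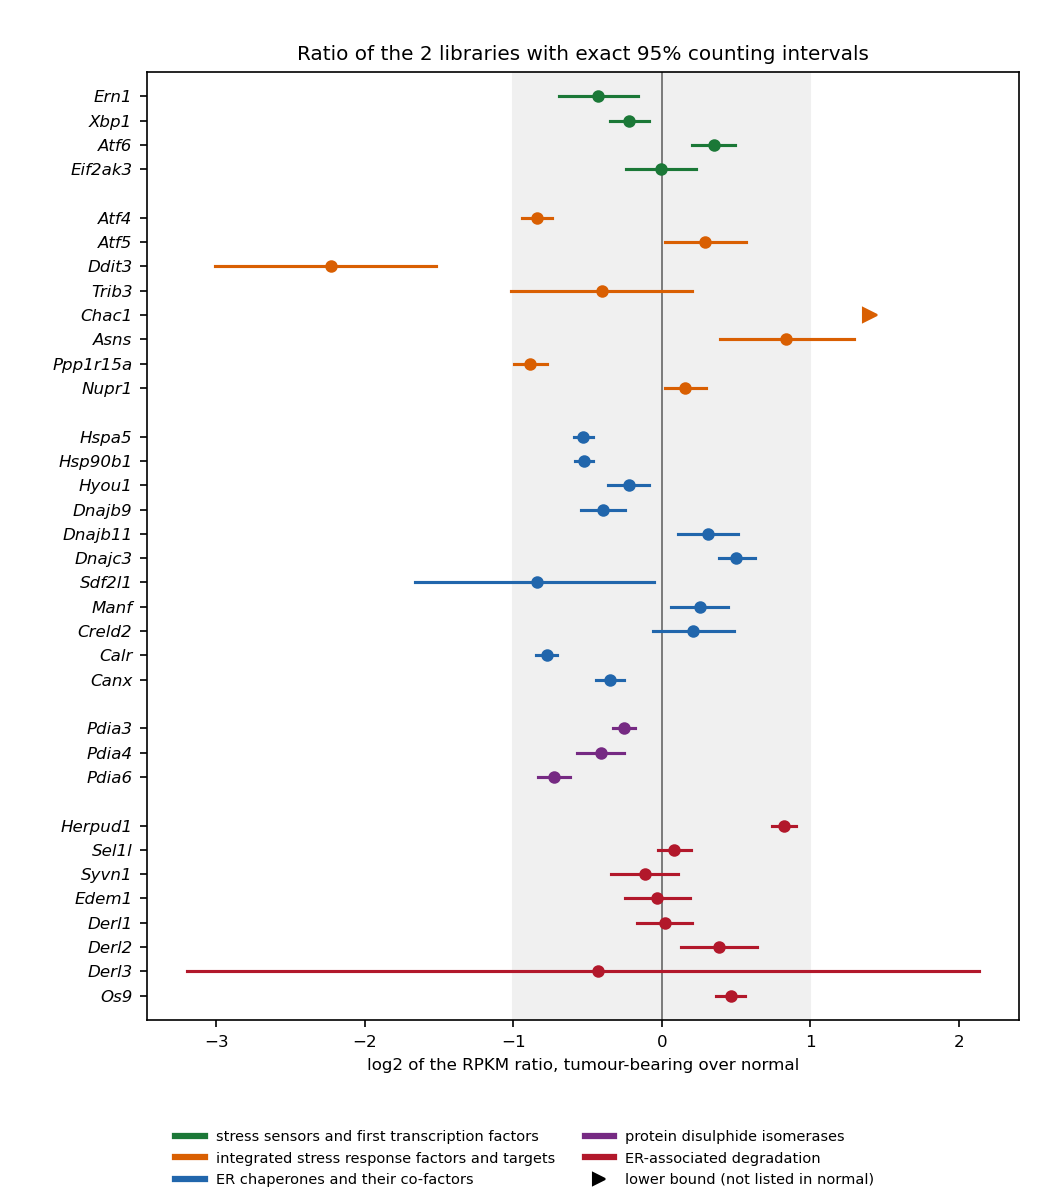
Log2 of the RPKM ratio, tumour-bearing over normal, of the 34 genes by role, with exact 95% counting intervals as lines and the range within 2-fold shaded. Ddit3 lies outside the shading to the left, the 3 disulphide isomerases lie left of 0, and no tested gene of ER-associated degradation has its interval left of 0. The triangle for Chac1, called a lower bound in the key, is its ratio with 3 reads set for the normal library and not the limit of its interval.

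ER-associated degradation, which moves misfolded proteins back to the cytosol for the proteasome, held no tested gene with an interval below 1. Of its 7 tested genes, 3 had an interval above 1 and 4 across it, and the median log2 ratio was 0.08. That is close to the 33.1% above 1 and the median of 0.06 over all genes, while 26.5% of all genes lay below 1. Summed RPKM of its 8 genes was 367 (normal) and 542 (tumour-bearing). Most of that gap was Herpud1 (GeneID 64209, chromosome 8, 94386429 to 94395371), a membrane scaffold of the ubiquitin ligase complex, at 187 and 330.1 RPKM, 1.77-fold higher (1.67 to 1.87). It was the most abundant of the 34 genes in the tumour-bearing library, and 87.3% of all genes tested had a lower log2 ratio.

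Os9, a lectin that hands glycoproteins to the ligase, was at 70.9 and 97.7 RPKM, 1.38-fold higher (1.29 to 1.47). Derl2, a channel component, was at 11.7 and 15.3 RPKM, 1.30-fold higher (1.09 to 1.56), while its relative Derl1 was at 29.1 and 29.5 RPKM, with an interval of 0.892 to 1.15. The ligase itself and its adaptor were close to level, with Syvn1 (HRD1) at 18.2 and 16.8 RPKM, with an interval of 0.789 to 1.08, and Sel1l at 38.5 and 40.7 RPKM, with an interval of 0.981 to 1.14. Edem1, which trims mannose from misfolded glycoproteins, was at 11.3 and 11.1 RPKM, with an interval of 0.842 to 1.14. Derl3 had 4 and 3 reads, so a difference in it was not detectable at this depth. Differences beyond counting error thus lay in the scaffold, the lectin and 1 channel gene and not in the core ligase.

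**Figure D3:**
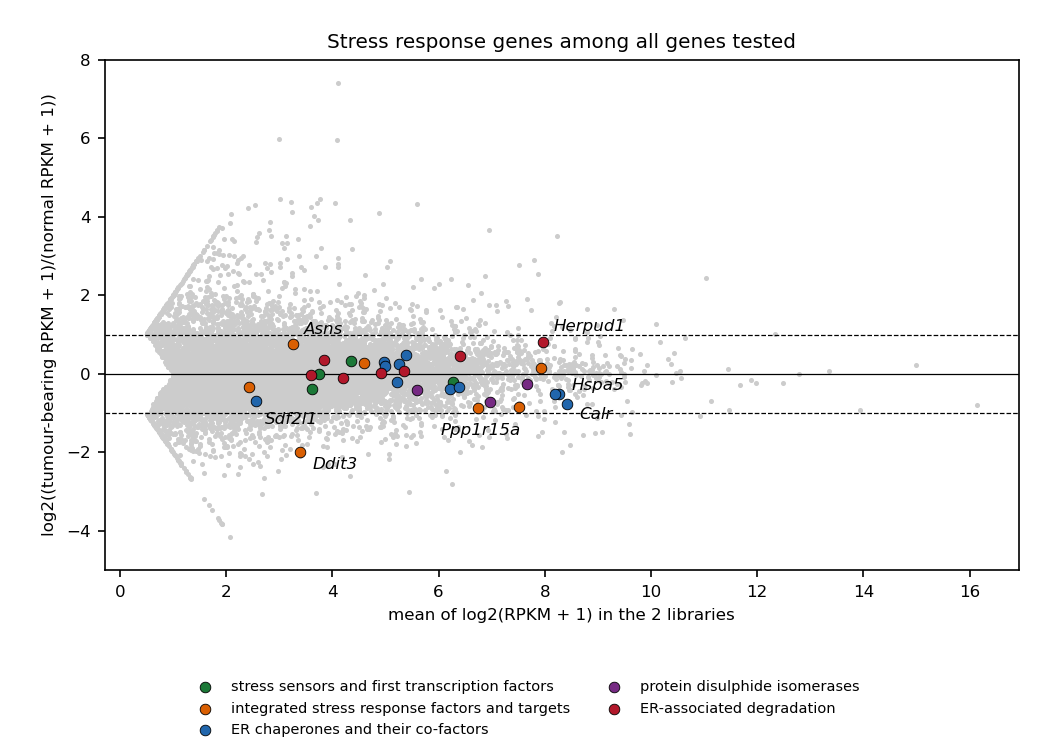
Log2((tumour-bearing RPKM + 1)/(normal RPKM + 1)) against the mean of log2(RPKM + 1) for 12288 genes tested (grey) and the 32 tested stress response genes (coloured by role), with dashed lines at 2-fold. Ddit3 is the coloured point past 2-fold, and Calr and Hspa5 sit at high expression below 0 while Herpud1 sits above 0.

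Other genes of the pathway, in lists that the 34 do not hold, are described next, starting with the ATF4 list. Of 22 tested ATF4 pathway genes, 16 were above 0 and 6 below, and the median log2 ratio was 0.43, against 53.8% above 0 and a median of 0.06 over all genes tested. By the 2-fold rule 4 were higher and 1 was lower, against 9.38% and 6.53%. The one lower was Atf3, a factor induced by ATF4 and also an immediate early gene, at 405 RPKM (normal) and 134 RPKM (tumour-bearing), 3.03-fold lower (2.85 to 3.22). Psat1, an enzyme of serine synthesis, was at 2.61 and 7.12 RPKM, 2.72-fold higher (1.80 to 4.22), and Slc7a5, the large neutral amino acid transporter, at 14.1 and 32.7 RPKM, 2.32-fold higher (2 to 2.69). Wars, tryptophanyl-tRNA synthetase, was at 17.8 and 37.2 RPKM, 2.09-fold higher (1.81 to 2.43). The other past 2-fold was Slc7a11, the cystine transporter, named after its values were seen, at 0.142 and 1.33 RPKM.

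Further genes of ER-associated degradation leaned upward. Of 19 tested, 16 were above 0, 11 had an interval above 1 and 2 below, and the median log2 ratio was 0.36, against 53.8%, 33.1% and 26.5% of all genes and their median of 0.06. Nploc4, a co-factor of the VCP motor that pulls proteins from the membrane, was at 7.32 and 18.5 RPKM, 2.53-fold higher (2.13 to 3.02), and was the 1 gene past 2-fold. Edem3, Erlec1 and Aup1, which trim substrates, bind them or help in their ubiquitination, were 1.71-fold, 1.63-fold and 1.55-fold higher.

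Other folding enzymes leaned slightly downward. Of 20 tested, 8 had an interval below 1 and 5 above, against 26.5% and 33.1% of all genes, and the median log2 ratio was -0.10, against 0.06. Pdia5, Txndc12 and Ero1b, thiol oxidoreductases of the ER, were 2.15-fold, 1.71-fold and 1.82-fold lower, from levels of 6.99, 37.9 and 6.65 RPKM in the normal library. Fkbp7, a prolyl isomerase, was at 1.88 and 10.3 RPKM, 5.5-fold higher (2.68 to 12.7), beside fibroblast markers that were also higher. The part of fibroblasts in this value was not tested.

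Translocation and glycosylation genes, which bring proteins into the ER and add sugars, were within 2-fold for all 25 tested. Of all genes tested, 9.38% were higher and 6.53% lower by 2-fold or more, so most genes were within it. The median log2 ratio of the 25 was 0.15, against 0.06, and 11 had an interval above 1 and 6 below, against 33.1% and 26.5%. Sec11c, a signal peptidase subunit, Ssr4, of the translocon-associated complex, and Stt3b, a catalytic subunit of oligosaccharyl transferase, were 1.93-fold, 1.55-fold and 1.5-fold higher, and Sec61g, a subunit of the translocon, was 1.81-fold lower. Of 10 other eIF2 kinase, phosphatase and eIF2B genes, 9 were above 0, against 53.8% of all genes tested, and 0 were past 2-fold. The interval lay above 1 for 4 of the 10, against 33.1% of all genes, and included 1 for 6. Eif2b1, a subunit of the exchange factor that eIF2alpha phosphorylation blocks, was at 9.48 and 18.9 RPKM, 1.99-fold higher (1.55 to 2.56). Eif2b4, Eif2s1 (eIF2alpha itself) and Eif2b2 were 1.42-fold, 1.36-fold and 1.17-fold higher, and the interval of Eif2b2 included 1 (0.943 to 1.46).

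Relatives of ATF6 that are also held in the ER membrane did not move as 1 group. Of 7 tested genes, with the proteases that cleave them, 2 were lower by 2-fold or more, against 6.53% of all genes tested, and the median log2 ratio was 0.02. Creb3l1, which activates secretory and collagen genes in other cells, was at 41.2 and 14.8 RPKM, 2.79-fold lower (2.35 to 3.32), although fibroblast collagen markers were higher. The other was Creb3l4, named after its values were seen, at 3.26 and 0.598 RPKM. Creb3l2 and Creb3 were 1.39-fold (1.15 to 1.69) and 1.36-fold (1.15 to 1.6) higher, and Mbtps1, the first protease to cut ATF6, was 1.22-fold lower (1.10 to 1.36).

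**Figure D4:**
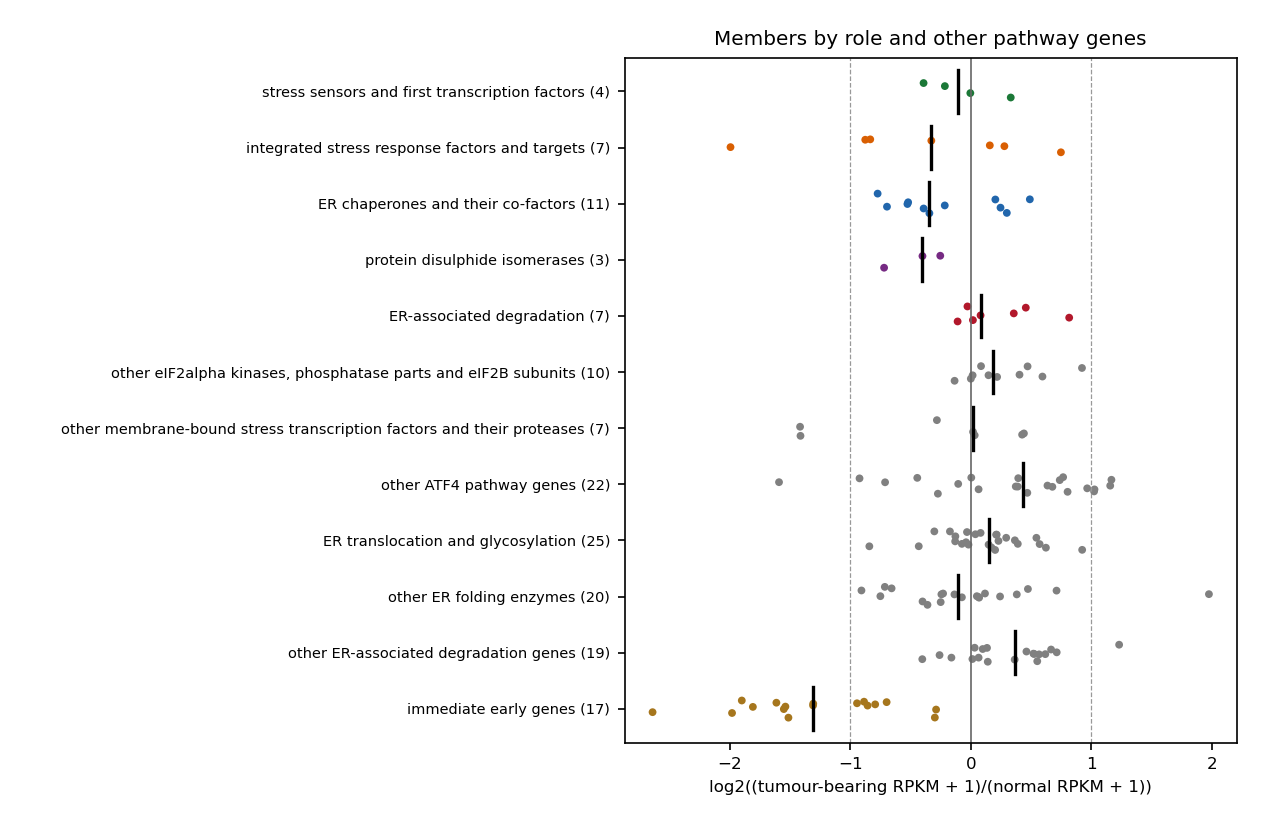
Log2((tumour-bearing RPKM + 1)/(normal RPKM + 1)) of each tested gene (points, spread vertically for visibility) in the 5 role groups of the 34 genes (coloured), 6 lists of other pathway genes (grey) and the immediate early genes (brown), with the number tested in brackets, medians as black bars and dashed lines at 2-fold. Medians run from -0.40 for the isomerases to 0.08 for ER-associated degradation among the role groups, with other ATF4 pathway genes at 0.43 and immediate early genes at -1.31.

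Gene models of 11 of the 34 overlap a gene on the opposite strand in GENCODE M21, and since the strand setting is not given, reads in the shared bases cannot be assigned. The overlaps are 68 bases with Mars and 15 with Gm4189 for Ddit3, 535 bases with Gm15890 for Herpud1 and 717 bases with Tulp2 for Ppp1r15a. The longest, over introns and exons together, are 42681 bases of Manf with Dcaf1, 4652 of Dnajb11 with Gm30505 and 4598 of Hsp90b1 with 1810014B01Rik. The Manf overlap is longer than the RefSeq span of Manf (chromosome 9, 106888753 to 106891938), so that length holds for the GENCODE model only.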

How the data were processed

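RNA of sorted lung cells was selected with oligo(dT) beads, fragmented and amplified by PCR, per the labels' protocols. Trimmomatic and the mm10 build are named, without versions, per the submitters' processing notes, while no aligner, counting tool or annotation is named there. The authors deposited 1 table of RPKM per library, per the file headers, in which genes at 0 are not listed. Sftpc took 18.6% of the summed RPKM in the normal and 11.2% in the tumour-bearing library, and such genes lower the RPKM of the rest.

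Values were compared as deposited, on the log2(RPKM + 1) scale for counts and medians, which understates ratios of low genes, and as direct ratios in the text. A gene was tested where either library reached 1 RPKM. Reads were recovered for 15100 of 15113 genes from the whole-number steps of the RPKM values and the order of rows (13 of 28187 neighbouring pairs were out of order). Lengths were required to be whole within 0.02 base when the library totals were set, and they equalled a GENCODE M21 transcript length of the same symbol for 12.8%. The totals are estimates of this work. In simulated tables of 14939 genes, 99.9% of recovered reads were correct, and 98.0% of 200 genes changed for this comparison passed 2-fold. The simulated tables were built from the recovered lengths and totals, so they do not show that those hold for the deposited tables. The 200 genes had 20 or more mean reads and were given changes larger than 2-fold, so smaller differences were not covered. PCR reads are not independent molecules. Intervals are Clopper-Pearson intervals of the ratio of reads at 95%. A floor of 3 reads was used only for a ratio to a library at 0. No count test was run, since each group held 1 library.

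The 34 genes, the role groups and the lists were chosen with earlier results of these data known. All 34 may be named. Each other list could give up to 4 names, by absolute log2 ratio, among genes reaching 5 RPKM. Chromosomal positions are from RefSeq GRCm38.p6, by GeneID. Protein sequences were not used here. Alternatives were pseudocounts of 0.1 and 5, no filter and a filter at 5 RPKM, trimmed-mean and upper-quartile scaling, centring, the sum without Sftpc, recovered reads, and thresholds of 1.5-fold and 4-fold. Interval calls under the 4 scalings were added after the data were seen. Python 3.11.15, numpy 2.4.6, pandas 2.3.3, scipy 1.17.1 and matplotlib 3.10.9 were used.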

Additional observations from a re-analysis of the deposited data

How the results depend on the processing

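Under the 9 alternatives for scaling, pseudocount, filter and reads, 1 of the tested stress response genes was lower by 2-fold or more and 0 were higher by that rule, as reported. With a threshold of 1.5-fold, 6 were lower and 2 higher, against 16.1% and 19.4% of all genes tested, and with a threshold of 4-fold 0 were lower, against 0.61%. Both thresholds were set on the log2(RPKM + 1) scale, where Ddit3 was at -1.996, while its direct ratio was 4.7-fold lower. Interval calls under the scalings were added after seeing the data: 15 genes lay below 1 in each, with 28.8% to 31.8% of all genes, and 7 to 8 above 1, with 27.7% to 30.7%. The median of the tested members ranged from -0.26 with upper-quartile scaling to -0.12 with no filter. With upper-quartile scaling the median of ER-associated degradation was -0.02, opposite in sign to the reported 0.08, and Sel1l and Derl1 were below 0. Derl1 was also below 0 with trimmed-mean scaling, centring and the sum without Sftpc. No other tested member changed sign under these 9 alternatives. The median of the integrated stress response group was -0.09 with no filter, where Chac1 enters, against -0.33 as reported. No paired analysis was possible because each group held 1 library, and for the same reason no library could be left out. Depth limits Derl3, Chac1, Ddit3, Sdf2l1 and Trib3, with under 100 reads in each library.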

Other observations

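Ratios between 2 genes within 1 library do not depend on how the libraries are scaled. The pairs below were chosen after their values were seen, and each library gives 1 value. Herpud1 stood at 0.504 times the RPKM of Hspa5 in the normal library and at 1.28 times in the tumour-bearing library, so the order of the degradation scaffold and the main chaperone was opposite in the 2 libraries. Dnajc3 went from 0.0922 to 0.188 times Hspa5. Calr was 4.79 times Canx in the normal and 3.56 times in the tumour-bearing library, and Pdia6 was 0.718 and 0.518 times Pdia3. Asns was 0.0264 and 0.0844 times Atf4, Nupr1 was 0.951 and 1.90 times Atf4, and Ddit3 was 0.0816 and 0.0311 times Atf4. The targets Asns and Nupr1 and the factor Ddit3 thus moved apart relative to Atf4.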
